A study of Mus musculus with 6 samples.

Results

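The 10 genes described here, Mybl1, Tcfl5, Rfx2, Sox30, Crem, Tbpl1, Taf7l, Pou5f2, Zfp541 and Ybx2, encode regulators of transcription (and, for Ybx2, of mRNA) that act in meiotic and haploid male germ cells. They were chosen by name, 10 of the 32285 genes counted, with earlier results of these data known. Their UMIs (unique molecular identifiers, each standing for 1 captured mRNA molecule) were followed over 8 germ cell stages and by diet. The data are single-cell RNA sequencing of dissociated testes of C57BL/6 wild-type mice (C57BL/6N in the study's methods) aged 8 weeks. For 2 weeks the mice had been fed a diet rich in fat (HFD) or a control diet low in fat (LFD). Both are purified diets in the study's methods, and 3 libraries were made per diet. The methods give 3 mice per diet, and no label ties a library to its animal, so the diet p-values measure the spread between these libraries. The p-values between stages compare each library with itself and measure how much a stage change varies from library to library. The labels and the study's methods name different versions of the library kit.

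Diets were assigned from the labels. In all 6 cases the name of the library's file states the other diet, so the text writes of libraries labelled HFD or LFD, and every diet difference changes sign if the file names are right. The order of stages does not depend on this.

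The libraries held 39196921 to 95845514 UMIs in 5753 to 11095 barcodes, a barcode being 1 droplet. Between 12 and 28 barcodes were shared by each pair of libraries, and 0 to 3 among the barcodes given a stage. Barcodes with at least 5000 UMIs were placed in the stage whose markers stood highest, without any of the 10 genes among the 64 markers, and 9809 of 12392 such barcodes received a stage (79.2%; they carried 66.1% of all UMIs). Per stage this gave 745 spermatogonia, 936 leptotene to zygotene spermatocytes, 1577 pachytene spermatocytes, 1035 late spermatocytes at division, 1036 early round spermatids, 1828 later round spermatids, 1081 spermatids starting elongation and 1571 elongating spermatids, with 52 to 480 barcodes of a library in a stage. The markers were highest in their own stage for 9 of 10, 10 of 10, 6 of 8, 7 of 9, 8 of 8, 7 of 7, 3 of 6 and 5 of 6 genes in that order, so the label of the stage that starts elongation rests on few of its markers. Levels are given in CPM, UMIs of a gene per 1000000 UMIs of the same library and stage. Median UMIs per barcode ran from 8055 in leptotene to zygotene to 35500 in later round spermatids, so a CPM can fall while the UMIs per barcode rise.

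Droplets also take up free RNA. The level of each gene in 243 barcodes with macrophage markers (median 3470 UMIs per barcode) is therefore given for comparison. It is no measure of free RNA alone, since macrophages may express some of the genes, Crem and Tbpl1 among them. Macrophage barcodes were also shallower than those of any stage, and Prm1 stood at 6010 CPM in macrophage barcodes and at 1253 to 1662 CPM from pachytene to later round spermatids. The macrophage sums were small, at 90551 to 332215 UMIs per library, and held 58 UMIs of Mybl1 in all. For genes of low level, counts of libraries above or below the macrophage level therefore rest on few UMIs. How much free RNA adds to a germ cell level was not tested. The 2 replicate 1 libraries held 0 and 2 UMIs of 4 haemoglobin genes where the others held 1196 to 6724, and the library labelled HFD replicate 3 stood apart for Tcfl5 in late spermatocytes and for Tcfl5 and Tbpl1 in early round spermatids. In elongating spermatids the library labelled HFD replicate 2 held the protamine gene Prm1 at 33061 CPM where the other 5 libraries held 68785 to 102224, and the meiotic axis gene Sycp3 at 188 CPM where they held 19.8 to 66.4. Member levels of that stage that turn on it are given with and without it.

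In mice, male germ cells change their transcription programme at the start of meiosis, in the pachytene stage and again in haploid round spermatids, before transcription stops as the nucleus condenses. Each programme has its own DNA-binding factors, and testis forms of the basal machinery stand in for some general factors. The sex chromosomes are silenced in the pachytene stage, and many messages made early are stored, bound by proteins, until translation.

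The 10 genes peaked in 5 different stages. Taf7l and Mybl1 peaked in leptotene to zygotene spermatocytes, Pou5f2, Tcfl5, Rfx2 and Ybx2 in pachytene, Tbpl1 and Zfp541 in late spermatocytes, Crem in later round spermatids and Sox30 in spermatids starting elongation. For 8 genes the peak lay in the same stage in 6 of 6 libraries, the exceptions being Taf7l (5 of 6) and Zfp541 (4 of 6). The onset, the first stage with at least 50% of a library's highest CPM, was the spermatogonium for Taf7l, leptotene to zygotene for Mybl1 and Zfp541, pachytene for Pou5f2, Tcfl5, Rfx2 and Ybx2, and later round spermatids for Sox30, each in 6 of 6 libraries. Tbpl1 reached it in pachytene in 4 of 6 libraries, and Crem between late spermatocytes and early round spermatids, stages 4 and 5.

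**Figure D1:**
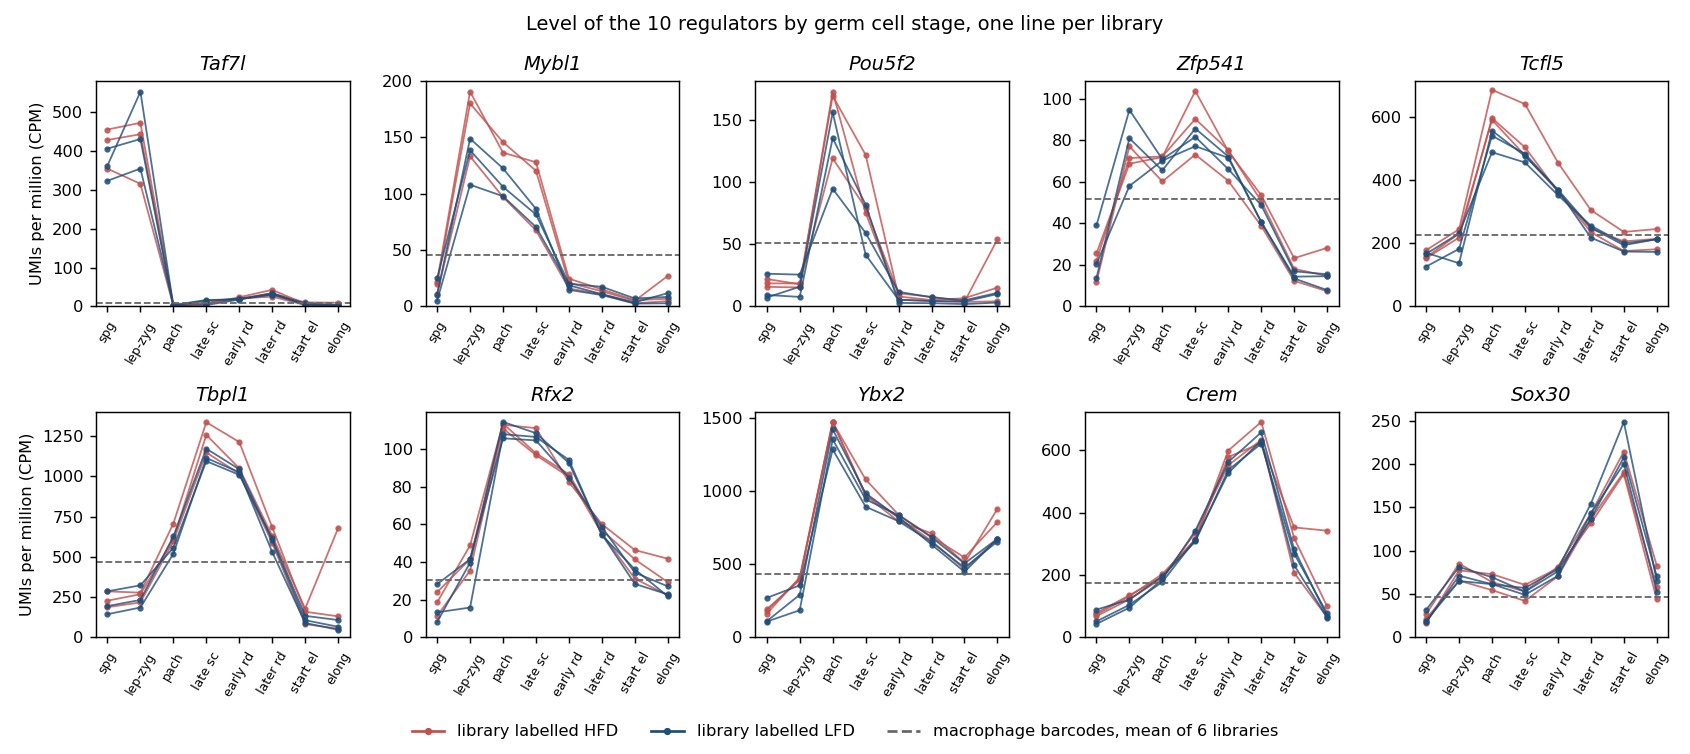
Level of each regulator in CPM (vertical axes, linear, from 0) over the 8 germ cell stages in order (spg, spermatogonia; lep-zyg, leptotene to zygotene; pach, pachytene; late sc, late spermatocytes at division; early rd and later rd, round spermatids; start el, starting elongation; elong, elongating), 1 line per library, with the mean macrophage level dashed. The lines of the 6 libraries run close together in most panels, and 1 library labelled HFD stands apart in elongating spermatids, at 677 CPM of Tbpl1 and 342 CPM of Crem.

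To place the genes on 1 axis, each library's position was computed as the mean stage number (1 for spermatogonia to 8 for elongating spermatids) weighted by CPM. Taf7l came first at 1.86 ± 0.0501 (SD, n = 6 libraries), followed by Mybl1 at 3.13 ± 0.120, Pou5f2 at 3.53 ± 0.306 and Zfp541 at 3.96 ± 0.144. Tcfl5 (4.34 ± 0.0572), Tbpl1 (4.37 ± 0.195) and Rfx2 (4.38 ± 0.0762) stood close together, and Ybx2 (4.70 ± 0.0800), Crem (5.09 ± 0.145) and Sox30 (5.36 ± 0.107) came last. Of the 9 neighbouring pairs in this order, 6 differed in the same direction in 6 of 6 libraries, each with p = 0.03125 in an exact two-sided sign-flip test, the smallest that 6 libraries can give, and adjusted p = 0.0469. Tcfl5 and Tbpl1 differed by 0.0313 ± 0.204 (SD; exact p = 0.875), Tbpl1 and Rfx2 by 0.0156 ± 0.168 (exact p = 0.8125), and Crem and Sox30 by 0.269 ± 0.218 (exact p = 0.0625), none past the threshold by this test. Sox30 came after Crem in 5 of 6 libraries, the exception being that labelled HFD replicate 2 (Crem 5.36, Sox30 5.20). The same library held Tbpl1 at 4.76, and without it Tbpl1 stood at 4.29, before Tcfl5. The adjusted value of the 6 pairs sits near the threshold, and 0 pairs passed when the macrophage level was first subtracted, with only the leading markers of each list or with a minimum of 10000 UMIs. The order of the 10 genes was the same with only the leading markers of each list. After subtraction of the macrophage level Tbpl1 (4.45) came after Rfx2 (4.16) and Ybx2 (4.33).

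**Figure D2:**
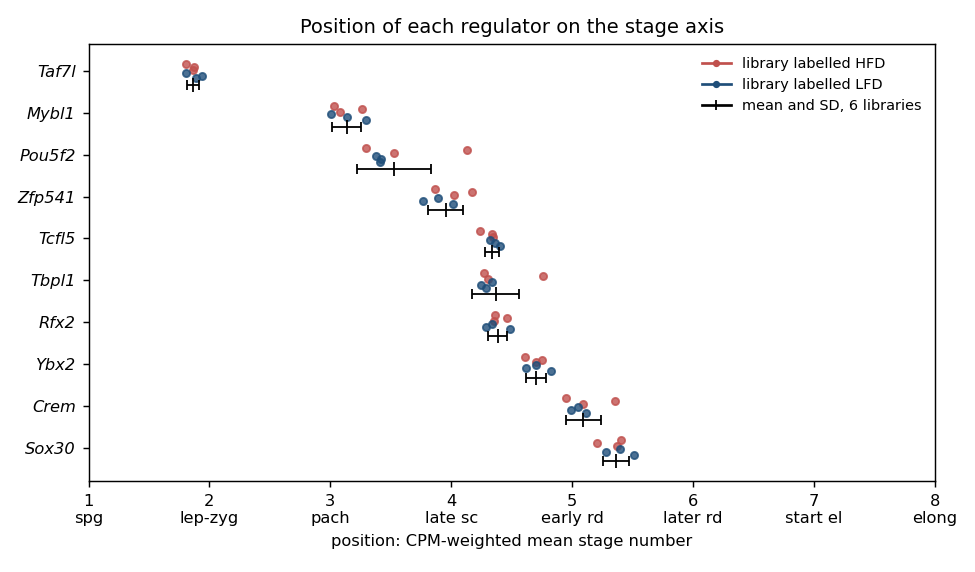
Position on the stage axis (horizontal, CPM-weighted mean stage number from 1 to 8) of each regulator, 1 point per library coloured by the labelled diet, with the mean and SD of 6 libraries in black. Taf7l lies at 1.86 and Sox30 at 5.36, Tcfl5, Tbpl1 and Rfx2 overlap between 4.34 and 4.38, and the library labelled HFD replicate 2 lies to the right for Pou5f2, at 4.13.

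Neighbouring stages were compared over the summed UMIs of each library with edgeR, each gene adjusted over 16492 genes. Large stage differences were the rule for all genes, so the members' counts are read against the share of all genes called. Into leptotene to zygotene, 7 of 10 members were called, all higher, where 45.9% of all genes were called (20.6% higher and 25.2% lower). Into pachytene 8 of 10 were called (67.3% of all genes), 7 higher (34.3%) and 1 lower (33.0%), and with DESeq2's size factors 6 were higher and 3 lower, Taf7l, Mybl1 and Zfp541. Into late spermatocytes it was 6 of 10 (62.1%), 4 higher (29.8%) and 2 lower (32.3%). Into early round spermatids it was again 6 of 10 (54.3%), 3 higher (26.4%) and 3 lower (27.8%). Into later round spermatids 5 of 10 were called (48.0%), 3 higher (27.4%) and 2 lower (20.6%), though the count was 3 to 7 when a library was left out. Into spermatids starting elongation 6 of 10 were called (58.3%), 1 higher (26.0%) and 5 lower (32.2%), and into elongating spermatids 6 of 10 (54.5%), 4 higher (28.2%) and 2 lower (26.3%). From late spermatocytes on, the members' counts thus lay near the shares of all genes. The members' median log2 change was 0.95 into leptotene to zygotene and 1.49 into pachytene, where the median of all genes was 0.01 and -0.09. Because the members were chosen as regulators of meiotic and haploid cells, with earlier results known, this difference from all genes is a description only. In the 5 later contrasts the members' median lay between -0.40 and 0.22, and that of all genes between -0.14 and 0.16.

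These log2 changes are on edgeR's TMM scale, which allows for a few very abundant messages. On the plain CPM scale the changes into pachytene were lower by 0.49, into later round spermatids by 0.31, into spermatids starting elongation by 0.54 and into elongating spermatids by 0.28. With DESeq2's size factors those into pachytene were lower by 0.65, and the median of all genes stood at -0.74 there. Each change should be read against the median of all genes, and where a member's call turns on the scale this is stated beside it. Calls of the listed partners and targets and of Taf7l2 were made on the TMM scale only.

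Mybl1 (chr1:9667415-9700209, minus strand, mm10) encodes A-MYB, the activator of pachytene piRNA precursors and of many meiotic genes. Its lowest, median and highest library in spermatogonia stood at 5.10, 15.7 and 24.8 CPM, and in leptotene to zygotene at 108, 144 and 191 CPM. All 6 libraries were higher in the later stage, with no overlap, a log2 rise of 3.30 ± 0.20 (SE; adjusted p = 4.63e-19). The level was 118 ± 20.6 CPM in pachytene and 92.4 ± 25.7 in late spermatocytes, while the UMIs per barcode rose from 1.47 ± 0.482 to 4.60 ± 1.96 between leptotene to zygotene and pachytene, where barcodes also held more UMIs in all. The pachytene change was not called on the TMM scale (0.15) and was a called fall with DESeq2's size factors (-0.51). Mybl1 then fell by 2.17 on the log2 scale into early round spermatids, to 19.2 ± 3.61 CPM. Macrophage barcodes held a mean of 45.7 CPM, below the leptotene to late spermatocyte levels and above all others in 6 of 6 libraries. A called rise of 1.38 into elongating spermatids (1.07 without HFD replicate 2) led to a level below that of macrophages.

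A list of 7 genes of the piRNA pathway that A-MYB is known to activate was read beside Mybl1. Of these, 5 rose into leptotene to zygotene and 0 fell (20.6% of all genes rose), with a median log2 change of 0.67. The 3 with the largest rise were Tdrd12 (1.28 ± 0.13), which encodes a tudor domain helicase, the helicase gene Mov10l1 (0.99 ± 0.17) and the tudor domain gene Tdrd5 (0.95 ± 0.19). Into pachytene 6 rose and 1 fell (34.3% of all genes rose), with a median of 1.42 against -0.09 for all genes, and the largest rises were those of Tdrd6 (2.87 ± 0.19) and Tdrd1 (2.04 ± 0.15). The gene that fell was Mov10l1, by 1.49 on the log2 scale. Piwil1, itself a gene of the piRNA pathway, was among the markers of the pachytene stage. How far the gate adds to the rises of this list was not tested. Into late spermatocytes 0 rose and 5 fell, with a median of -1.20, and Mybl1 was not called there (-0.32, adjusted p = 0.0675), though it was a called fall without HFD replicate 2 (-0.32, adjusted p = 0.0323). In later contrasts 0, 0, 1 and 3 of the 7 rose and 5, 3, 3 and 2 fell.

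Zfp541 (chr7:16061814-16096334, plus strand) encodes a zinc finger protein that works with KCTD19 and histone deacetylases in pachytene spermatocytes. It rose from spermatogonia (11.7, 21.2 and 38.9 CPM as lowest, median and highest library) to leptotene to zygotene (58.0, 74.2 and 94.5 CPM), without overlap and by 1.85 ± 0.16 on the log2 scale (adjusted p = 5.52e-14). It then kept a plateau, at 68.4 ± 4.75 CPM in pachytene, 85.2 ± 10.9 in late spermatocytes and 70.0 ± 5.69 in early round spermatids. The step into pachytene was called higher on the TMM scale (0.34, adjusted p = 0.0221) although only 3 of 6 libraries had the higher CPM there, and it was called lower with DESeq2's size factors (-0.30, adjusted p = 0.0310), so no direction is given for it. The rise into late spermatocytes (0.37 ± 0.13, adjusted p = 0.0115) was seen in 6 of 6 libraries, and missed the threshold with no filter on low counts (adjusted p = 0.0852) and at a minimum of 10000 UMIs (adjusted p = 0.0578). Zfp541 fell by 0.32 into later round spermatids, a call that was lost without LFD replicate 1 (adjusted p = 0.0806), LFD replicate 3 (0.112), HFD replicate 1 (0.0575) or HFD replicate 3 (0.0855). The call was also lost with no filter on low counts (adjusted p = 0.0982) and at a minimum of 10000 UMIs (0.0704). Zfp541 fell by 0.93 into spermatids starting elongation. Macrophages held 51.7 ± 26.6 CPM, above the level of spermatogonia and of both elongation stages in 6 of 6 libraries and above leptotene to zygotene in 1. Late spermatocytes were the only stage above that level in 6 of 6 libraries.

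Its partner gene Kctd19 rose by 2.23 into leptotene to zygotene and by 1.42 into pachytene, ahead of the other called partners in the first of these contrasts, where Sox6 rose by 1.49 and Rfx4 by 1.17. Over the whole list of 25 partners and paralogs of the 10 members, 23 had enough UMIs to be tested. Into leptotene to zygotene 9 rose and 4 fell (median 0.14), while 8 rose and 9 fell into pachytene (-0.04), 6 rose and 10 fell into late spermatocytes (-0.03), 11 rose and 4 fell into early round spermatids (0.55), 9 rose and 5 fell into later round spermatids (0.20), 3 rose and 9 fell into spermatids starting elongation (-0.19) and 4 rose and 15 fell into elongating spermatids (-0.78).

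Pou5f2, Tcfl5, Rfx2 and Ybx2 reached their highest level together in pachytene, and their promoters, 250 bases before to 50 after the start of the RefSeq gene (GRCm38.p6), are printed because the same change of stage joins them. The windows lie at chr2:180642642-180642941 (Tcfl5, minus strand), chr17:56830959-56831258 (Rfx2, minus strand), chr13:78024652-78024951 (Pou5f2, plus strand) and chr11:69935649-69935948 (Ybx2, plus strand, the upstream one of 2 entries). Capitals mark matches, on either strand, to the letters TAACNG or CAACNG (a MYB site), GTTGCC or GTTACC (an RFX site core), TGACG (the core of a cAMP response element) and CCAAT. Overlapping matches run together.
Tcfl5: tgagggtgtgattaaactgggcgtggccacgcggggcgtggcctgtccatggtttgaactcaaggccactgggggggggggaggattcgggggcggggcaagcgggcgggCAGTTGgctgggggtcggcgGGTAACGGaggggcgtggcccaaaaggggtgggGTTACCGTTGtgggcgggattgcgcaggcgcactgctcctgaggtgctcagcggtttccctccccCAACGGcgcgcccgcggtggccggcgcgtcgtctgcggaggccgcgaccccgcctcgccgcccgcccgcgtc
Rfx2: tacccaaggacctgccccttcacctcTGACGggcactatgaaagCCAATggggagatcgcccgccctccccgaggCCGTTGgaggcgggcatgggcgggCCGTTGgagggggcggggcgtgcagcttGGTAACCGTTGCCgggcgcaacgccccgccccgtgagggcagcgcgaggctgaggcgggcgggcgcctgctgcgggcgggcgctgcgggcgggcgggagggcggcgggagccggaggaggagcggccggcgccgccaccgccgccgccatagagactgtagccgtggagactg
Pou5f2: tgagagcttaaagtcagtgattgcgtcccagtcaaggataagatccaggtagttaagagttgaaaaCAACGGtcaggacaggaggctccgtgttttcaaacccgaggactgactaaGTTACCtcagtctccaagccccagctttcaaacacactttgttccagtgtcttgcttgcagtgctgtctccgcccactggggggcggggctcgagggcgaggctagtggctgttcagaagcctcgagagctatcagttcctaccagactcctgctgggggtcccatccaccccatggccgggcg
Ybx2: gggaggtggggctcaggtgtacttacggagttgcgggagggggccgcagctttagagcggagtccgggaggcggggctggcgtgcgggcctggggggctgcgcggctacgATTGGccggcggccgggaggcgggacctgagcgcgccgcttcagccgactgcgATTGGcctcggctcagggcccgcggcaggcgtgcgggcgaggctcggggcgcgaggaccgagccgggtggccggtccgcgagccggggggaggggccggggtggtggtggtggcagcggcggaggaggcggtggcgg
Tcfl5 and Rfx2 each held 4 MYB matches and 2 RFX site cores, several of them overlapping one another, and Pou5f2 held 1 of each. The printed Ybx2 window held 2 CCAAT matches and none of the other kinds, and its downstream entry held 1 RFX site core. Of 32851 promoters of the same length, 49.7% held a MYB match, 1.22% held at least 4, and 18.6% and 2.35% held at least 1 and at least 2 RFX site cores. The threshold of 4 was chosen after the sequences were seen. Over the 8 members with a promoter in the table (Mybl1 and Crem are named only), 6 held a MYB match, 4 an RFX site core, 3 CCAAT (37.4% of all promoters), 2 TATAAA (13.6%), 2 the SOX letters ACAAT (31.0%), 1 TGACG (20.8%), 1 CACGTG (7.15%), and 0 the full cAMP response element TGACGTCA (1.79%) or the octamer ATGCAAAT (1.74%). Zfp541 was counted among the members with a MYB match and with TATAAA. Its window (chr7:16071595-16071894) lies inside the gene span, well past the start at 16061814. The Tbpl1 window (chr10:22731398-22731697, minus strand), which held no match, also lies inside its gene span, which ends at 22731938. These 2 windows may thus not be the promoters of the annotated gene starts. A match is a run of letters and not a site shown to be bound.

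Pou5f2 (chr13:78024902-78026295, plus strand) encodes a POU domain factor of spermatocytes and lies within the span of Fam172a on the same strand, so reads of both genes may not be told apart fully. It stood at 7.63, 16.8 and 25.6 CPM (lowest, median, highest library) in leptotene to zygotene and at 94.6, 146 and 173 CPM in pachytene. The groups did not overlap, and the rise of 3.67 ± 0.29 on the log2 scale (adjusted p = 1.08e-15) was the largest of any member into pachytene. It fell by 0.88 ± 0.23 into late spermatocytes (76.5 ± 26.9 CPM) and by 3.41 ± 0.27 into early round spermatids (7.30 ± 3.41 CPM). Macrophages held 50.9 ± 40.6 CPM, from 0 to 122 CPM over the libraries, and 5 of 6 libraries stood above their macrophage level in pachytene. The called rise into elongating spermatids (1.96, to 16.2 ± 19.0 CPM) rests largely on the library that stands apart, at 53.9 CPM against 3.11 to 15.1 in the others, though without it the change was still 1.29 (adjusted p = 0.00254) at a level below the macrophage mean.

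Tcfl5 (chr2:180621956-180642708, minus strand) encodes a basic helix-loop-helix factor found chiefly in the testis, and overlaps Col9a3 on the opposite strand. Its lowest, median and highest library stood at 137, 225 and 245 CPM in leptotene to zygotene and at 489, 575 and 687 CPM in pachytene, with no overlap. The rise was 1.95 ± 0.14 on the log2 scale (adjusted p = 7.30e-17). The next 4 stages stood at 507 ± 67.8, 380 ± 38.1, 252 ± 29.5 and 198 ± 22.9 CPM. Of these steps the one into early round spermatids was called (-0.34, adjusted p = 0.0339). The call was lost without LFD replicate 1 (adjusted p = 0.110), HFD replicate 1 (0.122) or HFD replicate 3 (0.130). It was also lost with DESeq2's size factors (0.0588) and at a minimum of 10000 UMIs (0.127). The step into later round spermatids was a called fall without HFD replicate 2 (-0.32, adjusted p = 0.0200). With DESeq2's size factors the step into spermatids starting elongation was a called rise (0.44, adjusted p = 0.00659). On the TMM scale that step was 0.20 and not called. A called rise of 0.45 into elongating spermatids was 0.06 on the CPM scale. An earlier rise from spermatogonia (0.45, adjusted p = 0.00739) was not past the threshold with DESeq2's size factors (adjusted p = 0.0738) or without HFD replicate 3 (adjusted p = 0.0632). Macrophages held 226 ± 118 CPM, close to the levels of the 2 first and 2 last stages, so only pachytene and late spermatocytes were above that level in 6 of 6 libraries.

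Rfx2 (chr17:56775897-56831013, minus strand) encodes a winged-helix factor that acts on genes of cilia and of the sperm flagellum. It rose in 2 steps, from 17.2 ± 7.76 CPM in spermatogonia to 37.1 ± 11.3 in leptotene to zygotene (1.24 ± 0.19, adjusted p = 4.30e-07) and to 111 ± 3.45 in pachytene (1.99 ± 0.17, adjusted p = 4.81e-15). The lowest pachytene library (106 CPM) was above the highest leptotene to zygotene library (48.8 CPM). None of the 5 later changes was called on the TMM scale, although the CPM was lower in each later stage, down to 27.5 ± 7.60 in elongating spermatids, where macrophages held 30.6 ± 15.0. Without HFD replicate 2, the step into later round spermatids was a called fall (-0.39, adjusted p = 0.00803), as it was with DESeq2's size factors (-0.34, adjusted p = 0.0475).

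A list of 12 genes of cilia and flagella known to be under RFX factors was read beside it. In the contrast into pachytene 11 of 12 rose (34.3% of all genes did), with a median log2 change of 0.93. Dnali1 (2.28 ± 0.18) and Dync2h1 (1.17 ± 0.12), which encode dynein chains, and the tektin gene Tekt1 (2.16 ± 0.21) rose most. Foxj1, which encodes another ciliary transcription factor, fell by 0.85. Into leptotene to zygotene 7 rose and 1 fell (median 0.94), and in the later contrasts 5, 6, 2, 2 and 5 rose and 5, 3, 5, 8 and 4 fell.

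Ybx2 (chr11:69935796-69941605, plus strand) encodes a Y-box protein that binds DNA and stores mRNA in germ cells. It stood at 107, 171 and 269 CPM (lowest, median, highest) in spermatogonia, at 184, 372 and 409 CPM in leptotene to zygotene and at 1282, 1443 and 1471 CPM in pachytene. Both steps were called, at 1.05 ± 0.18 and 2.55 ± 0.18 on the log2 scale (adjusted p = 2.31e-06 and 2.87e-17), and the pachytene libraries lay apart from all earlier ones. The level then went down to 972 ± 61.2 CPM in late spermatocytes (-0.48, adjusted p = 0.0121, and 0.0684 with DESeq2's size factors) and to 490 ± 35.2 in spermatids starting elongation, without a further called step. It rose by 0.93 ± 0.17 into elongating spermatids, to 722 ± 89.9 CPM, and by 0.98 without the library that stands apart. Unlike the other calls of a rise in that last stage, this level was above macrophages (432 ± 243 CPM) in 5 of 6 libraries in CPM, although it held fewer UMIs per barcode. Among its relatives and the other partners, Ybx3 rose most into pachytene (3.04), followed by the testis subunit gene Gtf2a1l (2.06) and by Rfx4 (1.72).

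Crem, on chromosome 18, encodes a cAMP-responsive factor whose testis form activates genes of round spermatids, and overlaps Gm6225 on the opposite strand. It was the only member called higher in 5 contrasts in a row. The mean went from 66.8 ± 17.1 CPM in spermatogonia through 118 ± 15.5, 191 ± 8.77, 321 ± 14.3 and 559 ± 26.8 to 643 ± 26.9 in later round spermatids, each step in 6 of 6 libraries. The log2 changes were 0.86, 1.19, 0.80, 0.88 and 0.52, the last with an adjusted p of 0.00259. Neighbouring stages did not overlap between leptotene to zygotene and early round spermatids: the highest library of each stage (135, 203 and 342 CPM) lay below the lowest of the next (177, 307 and 527 CPM). UMIs per barcode rose over the same stages from 0.885 ± 0.278 to 24.8 ± 2.95. The level fell by 0.69 into spermatids starting elongation (277 ± 53.9 CPM) and by 1.12 into elongating spermatids, to 119 ± 110 CPM, or 74.0 ± 15.0 without the library at 342 CPM. Macrophages held 175 ± 66.6 CPM, so spermatogonia in 6 of 6 libraries and leptotene to zygotene in 5 stood below the macrophage level.

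The partner Fhl5 encodes ACT, a coactivator of CREM, and Kif17 encodes a kinesin that moves it. Fhl5 was called higher in 3 contrasts, by 1.88 into early round spermatids, 3.10 into later round spermatids and 1.83 into spermatids starting elongation. Kif17 rose by 1.17 into late spermatocytes and by 2.06 into early round spermatids. In these 2 contrasts Rfx1 (1.74 and 2.09) and Sox5 (1.08 and 3.04) were the other partners with the largest rises.

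Sox30 (chr11:45980310-46017994, plus strand) encodes an HMG box factor needed for round spermatids to develop. It rose first between spermatogonia and leptotene to zygotene, from 16.2, 20.3 and 31.6 CPM to 64.9, 74.2 and 85.0 CPM (lowest, median, highest), by 1.78 ± 0.20 on the log2 scale (adjusted p = 1.67e-10). After 63.8 ± 6.53 CPM in pachytene and 52.3 ± 6.43 in late spermatocytes it rose again in each of 3 contrasts, by 0.62 ± 0.17, 1.20 ± 0.17 and 1.12 ± 0.17, to 76.2 ± 4.63, 141 ± 7.89 and 208 ± 22.0 CPM. The lowest library of spermatids starting elongation (189 CPM) lay above the highest of later round spermatids (154 CPM). It then fell by 1.35 ± 0.17 into elongating spermatids, to 62.0 ± 13.8 CPM. The macrophage level was 46.8 ± 22.1 CPM. Leptotene to zygotene, later round spermatids and spermatids starting elongation were above it in 6 of 6 libraries, early round spermatids in 5, pachytene in 4 and late spermatocytes in 3. In the stage of its onset, later round spermatids, the partners with the largest rises were Fhl5 (3.10), Taf4b (2.65) and Sox5 (1.46).

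Tbpl1 (chr10:22703879-22731938, minus strand) encodes a TBP-like protein that takes the place of TBP at some promoters in spermatids, and overlaps Slc2a12 on the opposite strand. Its lowest, median and highest library went from 185, 250 and 323 CPM in leptotene to zygotene to 519, 603 and 707 in pachytene and 1094, 1160 and 1336 in late spermatocytes. No library of an earlier stage reached the next stage, and the 2 steps were 1.79 ± 0.21 and 1.03 ± 0.20 on the log2 scale (adjusted p = 1.29e-10 and 1.47e-05). It was not called different in early round spermatids (1060 ± 76.8 CPM) and fell by 0.50 ± 0.20 into later round spermatids (608 ± 50.8 CPM, adjusted p = 0.0355). That call was lost without LFD replicate 1 (adjusted p = 0.0687), LFD replicate 3 (0.0653), HFD replicate 1 (0.0584) or HFD replicate 3 (0.0991). A minimum of 10000 UMIs also lost it (adjusted p = 0.0810). A fall of 1.81 ± 0.21 followed into spermatids starting elongation, to 124 ± 38.9 CPM. In elongating spermatids the mean of 180 ± 246 CPM hides 677 CPM in the library labelled HFD replicate 2 and 46.5 to 130 in the others, whose mean was 80.4 ± 36.2. The step into that stage was not called on the TMM scale (0.40), was called higher with DESeq2's size factors (0.53, adjusted p = 0.00472) and was -0.08 without that library. Macrophages held 465 ± 204 CPM, above spermatogonia, leptotene to zygotene and both elongation stages in 6 of 6 libraries. The general factor gene Tbp rose into leptotene to zygotene, pachytene and late spermatocytes (0.54, 0.95 and 0.52) and Gtf2a1l, which encodes a testis partner of TBP-like factors, rose by 2.06 into pachytene and by 0.99 into late spermatocytes.

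Taf7l (chrX:134460118-134476490, minus strand) encodes a germ cell relative of the TFIID subunit TAF7 and is the only X-linked member. Its lowest, median and highest library stood at 324, 385 and 456 CPM in spermatogonia and at 316, 438 and 553 in leptotene to zygotene, a change that was not called (0.15, adjusted p = 0.533). In pachytene it stood at 0.878, 2.04 and 3.69 CPM (127 UMIs in 1577 barcodes). That fall of 7.11 ± 0.25 on the log2 scale (adjusted p = 3.37e-28) was the largest change of any member in any contrast. It came back in part, in each of 3 steps and 6 of 6 libraries, to 9.71 ± 4.92, 20.1 ± 2.12 and 32.8 ± 5.83 CPM in later round spermatids, or 7.65% ± 1.43 of the highest stage, and fell again by 1.92 ± 0.21 to 6.27 ± 2.59 CPM. Macrophages held 9.78 ± 5.08 CPM, above pachytene in 5 of 6 libraries and below both round spermatid stages in 6 of 6. These macrophage levels, from 0 to 14.5 CPM over the libraries, rest on very few UMIs.

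The genes of chromosome X as a whole were also lowest in pachytene. They gave 1.75% ± 0.133 of UMIs in spermatogonia and 1.36% ± 0.206 in leptotene to zygotene, 0.0727% ± 0.0313 in pachytene and 0.213% ± 0.0595 in late spermatocytes, and then 0.742% ± 0.0469, 1.23% ± 0.0716 and 1.63% ± 0.0947 up to spermatids starting elongation, the stage into which Taf7l fell. All markers of early round spermatids were Ssxb genes, which lie on chromosome X and were counted in this share. So were Rhox13 and Scml2, X-linked markers of spermatogonia and of leptotene to zygotene. The gate thus favoured barcodes with such UMIs, and how much this adds to the share was not tested. Taf7l2, a copy of Taf7l on chromosome 10, was looked up after the values of Taf7l and chromosome X were seen. It went from 87.8 CPM in spermatogonia to 279 in leptotene to zygotene, 519 in pachytene and 618 in late spermatocytes, with log2 changes of 1.73 ± 0.17 and 1.40 ± 0.17 in the first 2 steps (adjusted p = 8.93e-12 and 2.21e-10), each in 6 of 6 libraries. It was called lower by 2.46 in spermatids starting elongation (23.9 CPM). Reads shared by such close copies can be lost or misplaced in counting, so the levels of both are uncertain.

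**Figure D3:**
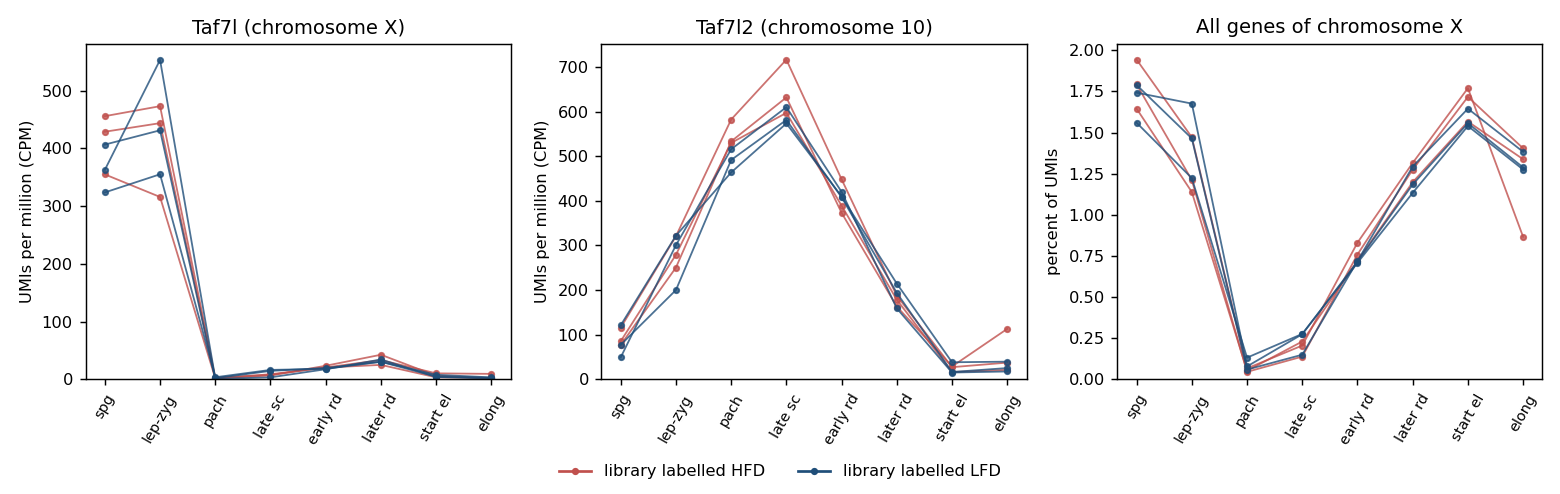
CPM of Taf7l (left) and Taf7l2 (middle) and the percentage of UMIs from all genes of chromosome X (right) over the 8 stages, 1 line per library coloured by the labelled diet, axes from 0. Taf7l drops from 429 to 2.20 CPM into pachytene, where Taf7l2 climbs to 519 CPM and chromosome X gives 0.0727% of UMIs.

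For each member the 2 genes of most similar course were sought over 48 sums (8 stages in 6 libraries) of 10368 genes by Pearson's r of log2(CPM + 5), as a description, since stages and libraries repeat in the sums. Tbpl1 had the closest matches, Ccdc130 (r = 0.992) and Gkap1 (0.988), followed by Taf7l with Fn1 (0.987) and Ofd1 (0.983). Crem was nearest to Nme5 (0.976) and Ccdc89 (0.972), which were also highest in later round spermatids, and Mybl1 to Uggt2 (0.975) and Terb1 (0.971), the second a gene of telomere attachment in meiosis. Rfx2 was nearest to 4930458A03Rik (0.973) and Stk33 (0.970), Ybx2 to Rangrf (0.971) and Hoxa4 (0.970), Tcfl5 to AY702103 (0.967) and Gm5922 (0.965), Pou5f2 to Phf2 (0.965) and Smg9 (0.962) and Zfp541 to Glt8d1 (0.959) and Trmt10a (0.957). Sox30 had the least close matches, Ppp1r2 (0.932) and Ndfip2 (0.879).

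By labelled diet, 0 of 10 members differed in any of the 8 stages or over all barcodes of a library, by edgeR or by DESeq2. Over all genes edgeR called 0% of the 9394 to 20727 tested in each of these 9 comparisons, and DESeq2 called 25 genes, all in pachytene. At an unadjusted p under 0.05 there were 133 to 873 genes per comparison and 3 member values in all. The first was Pou5f2 over all barcodes, at 55.3, 52.9 and 73.9 CPM in the 3 libraries labelled HFD and 40.8, 52.5 and 31.1 CPM in those labelled LFD. The diets did not overlap, and the log2 difference was 0.61 ± 0.21 (adjusted p = 0.986), with 0.43 between the replicate 1 libraries, which held 0 and 2 haemoglobin UMIs, and 0.62 between the others. A sum over all barcodes also follows a library's mix of stages. Pachytene barcodes held 16286728 of 95845514, 12395700 of 80935345 and 11209931 of 67422412 UMIs under the HFD label. Under the LFD label they held 11384029 of 77019159, 7314520 of 69076114 and 2352094 of 39196921. Within pachytene the Pou5f2 difference was 0.30 ± 0.21, with overlap (adjusted p = 0.786). The part of this mix in the Pou5f2 value was not tested. Ybx2 in leptotene to zygotene stood at 409, 399 and 390 CPM against 290, 355 and 184 CPM, again without overlap (0.52 ± 0.21, adjusted p = 0.995). Within replicate 1 that difference was 0.49 and among the others 0.62. Pou5f2 in late spermatocytes stood at 75.3, 79.1 and 122 CPM against 81.9, 59.1 and 41.6 CPM, which overlap (0.60 ± 0.25, adjusted p = 0.951), and the difference was -0.12 within replicate 1 and 0.97 among the others.

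In other comparisons the member with the smallest p was Zfp541 in spermatogonia (-0.42 on the log2 scale), Tcfl5 in pachytene (0.26), Taf7l in early round spermatids (0.21), Sox30 in later round spermatids (-0.13), Rfx2 in spermatids starting elongation (0.22) and Tbpl1 in elongating spermatids (1.27), the last carried by the library at 677 CPM. Tcfl5 in pachytene stood at 592, 597 and 687 CPM under the HFD label and 542, 489 and 558 CPM under the LFD label, without overlap (adjusted p = 0.746). Members whose diets did not overlap numbered 3 over all barcodes (6.68% of all genes), 0 in spermatogonia (7.14%), 2 in leptotene to zygotene (10.5%), 2 in pachytene (11.0%), 0 in late spermatocytes (7.56%), 1 in early round spermatids (10.9%), 0 in later round spermatids (8.00%), 0 in spermatids starting elongation (5.93%) and 1 in elongating spermatids (6.67%). The median standard error of a member's log2 difference was 0.11 in early and later round spermatids, 0.13 in pachytene, 0.30 in spermatogonia and 0.44 in elongating spermatids. In simulated data of the same depth, 200 genes at once were changed by 1 log2 unit. Of these, 90% were called in pachytene (12785 genes) but 0% in elongating spermatids (8864 genes). Differences of that size were thus not detectable in the last stage. With 200 changed genes the adjusted threshold is easier to reach than with few, so the 90% is not a single member's chance of being called. The changed genes were drawn only from those above a minimum mean level. The 90% thus does not cover members of very low level, such as Taf7l in pachytene (2.20 CPM).

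**Figure D4:**
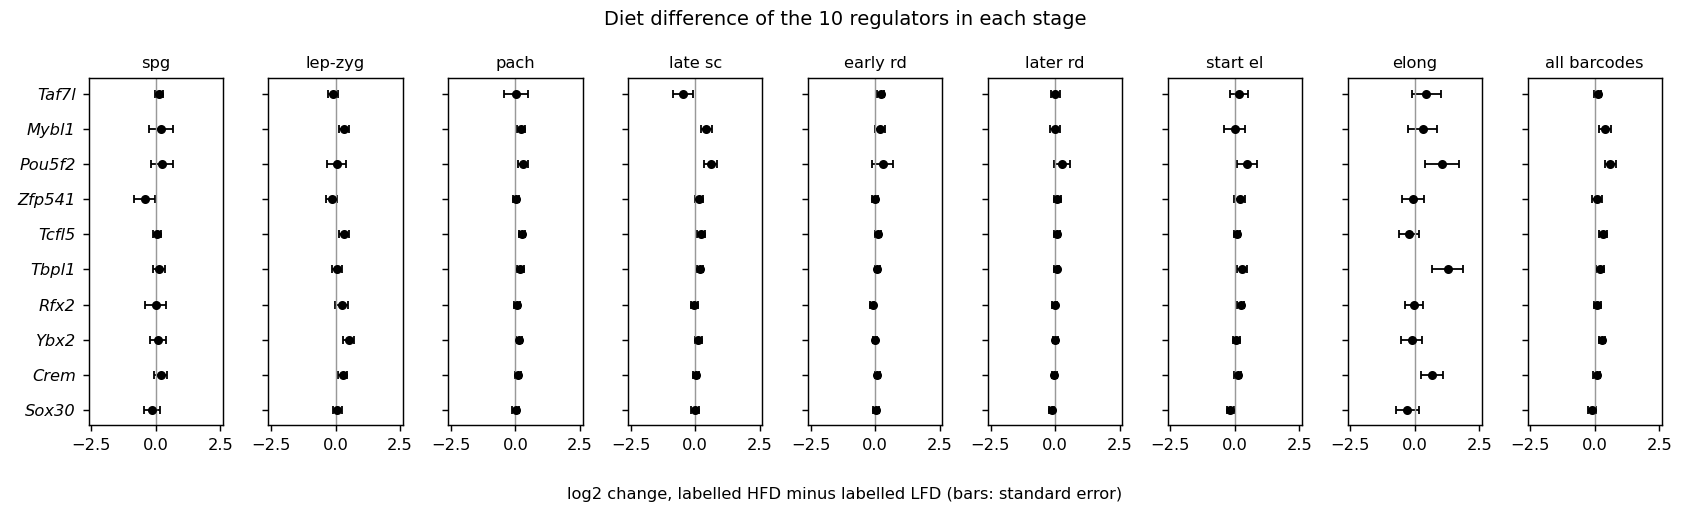
Log2 difference of each regulator, labelled HFD minus labelled LFD (horizontal axes, log2 units), with its standard error, in each of the 8 stages and over all barcodes of a library (n = 3 libraries per label). The points lie between -0.48 and 1.27, most near 0, and none passed the test.

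The positions on the stage axis did not differ by labelled diet past the threshold either, though 3 libraries against 3 cannot give an exact two-sided permutation p below 0.1. The differences ran from -0.0684 for Sox30 to 0.249 for Pou5f2 stage units, with exact p-values of 0.3 to 0.8 and an adjusted p of 0.8 for each of the 10 members. The Pou5f2 value (3.65 ± 0.433 under the HFD label and 3.40 ± 0.0222 under the LFD label) was -0.0828 within replicate 1 and 0.415 among the others, which hold the library that stands apart in elongating spermatids.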

How the data were processed

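Per the submitters' notes, the authors used Cell Ranger 6.0.1 and mm10. The 6 libraries were deposited as whole UMI counts with no normalization. Barcodes with at least 5000 UMIs were staged by z-scores of marker lists (top stage at least 0.5, and 0.25 above the next), and counts were summed per library and stage, 20 barcodes or more in each. Members and lists were chosen with earlier results of these data known. Doublets stayed in, with Scrublet (scanpy 1.11.5) removal at 0.8% per 1000 barcodes as an alternative. Neighbouring stages were tested with edgeR 4.0.16 (R 4.3.3; quasi-likelihood, TMM, library as a block, all stages in one fit), labelled HFD minus LFD within each stage without covariates, with Benjamini-Hochberg adjustment over all genes and a threshold of 0.05. DESeq2 1.42.0 was an alternative, as were other size factors, filters, gates and left-out libraries. Counting error was not separated from the spread of libraries, and weighs most where a library held few UMIs of a gene. edgeR was tested on simulated data: of 200 genes above a minimum mean level, changed by 1 log2 unit among 14593, 96% were called in the pachytene contrast, with 18 false calls. Named were all 10 members, the list genes called in a member's direction into its onset stage (at most 3 a list) and the 2 most similar genes. Genes named beyond that rule, Taf7l2, Mov10l1 into pachytene, Foxj1, Tbp, Fhl5 and Kctd19 in further contrasts, were chosen after their values were seen. Promoters came from RefSeq (GRCm38.p6), 8 of 10 members matched. Exact sign-flip and permutation tests were two-sided. Gene positions are those of GENCODE, mm10.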

Additional observations from a re-analysis of the deposited data

Results flagged for a closer look

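Among 80 sets of 6 libraries (10 members in 8 stages), 8 had 1 library farther from the rest than Dixon's 95% limit allows, where chance gives about 1 in 20. Of these, 5 were the library labelled HFD replicate 2 in elongating spermatids (386 barcodes): Tbpl1 stood at 677 CPM (others 46.5 to 130), Crem at 342 (63.2 to 99.1), Pou5f2 at 53.9 (3.11 to 15.1), Mybl1 at 27.1 (2.81 to 11.8) and Taf7l at 9.57 (1.48 to 3.52). Prm1 was 33061 CPM and Sycp3 188 CPM in the same barcodes, against means of 90090 and 43.1 in the other 5 libraries. The part of these in the members' levels was not tested. The other 3 were the library labelled HFD replicate 3, with Tcfl5 at 642 CPM in late spermatocytes (others 457 to 505) and at 456 in early round spermatids (353 to 370), and Tbpl1 at 1213 in early round spermatids (1009 to 1049). Diet groups of 3 libraries were too small for this rule.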

How the results depend on the processing

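Of 528 values of called stage changes under alternatives, 497 kept direction and call, 29 lost the call and 2 reversed, both Zfp541 into pachytene (-0.30 with DESeq2's size factors, -0.31 with DESeq2). Members called into later round spermatids numbered 3 at a minimum of 10000 UMIs and 3 to 7 when a library was left out. Pairs of neighbours past the threshold numbered 0 with either macrophage subtraction, only the leading markers of each list or 10000 UMIs, and 0 to 0 without a library, where 5 libraries cannot reach the threshold. With the macrophage level subtracted, positions moved for Mybl1 (2.74), Tcfl5 (3.88), Rfx2 (4.16), Sox30 (6.03), Crem (5.45), Taf7l (1.71), Pou5f2 (3.20), Zfp541 (3.51) and Ybx2 (4.33), and the onset of Tbpl1 to stage 4. Subtraction scaled by Prm1 or Sycp3, chosen after seeing the data, gave Mybl1 2.95, Rfx2 4.47, Sox30 5.65, Crem 5.30 and Taf7l 1.80. At 10000 UMIs Tcfl5 stood at 4.26, Rfx2 at 4.28, Taf7l at 1.79 and Ybx2 at 4.58. With onset at 25%, Tcfl5 began in stage 1, Rfx2, Sox30 and Ybx2 in stage 2 and Crem in stage 3. Elongating spermatids without HFD replicate 2 and the lower barcode minimum of 10 at 10000 UMIs were also chosen after seeing the data. The cause of these changes was not tested.

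By labelled diet 0 members were called under any alternative. Over all genes, calls in place of 0 reached 318 in pachytene with no filter on low counts, and 364 in early round and 293 in later round spermatids without HFD replicate 1, 173 in pachytene without LFD replicate 1, and 25 in pachytene with DESeq2. Zfp541 in spermatogonia ran from -0.73 to 0.15 without a library. Position differences reversed, all uncalled, for Rfx2 (-0.0758), Tbpl1 (-0.0893) and Pou5f2 (-0.0270) with scaled subtraction, for Tbpl1 (-0.0553), Taf7l (0.00963) and Ybx2 (0.0458) with full subtraction, and for Ybx2 with only the leading markers (0.00848) or 10000 UMIs (0.0292). Without a library they ran from -0.0924 to 0.0534 for Mybl1, -0.0205 to 0.0785 for Rfx2, -0.0302 to 0.175 for Crem, -0.0644 to 0.00194 for Taf7l and -0.0784 to 0.0240 for Ybx2. No label pairs the libraries of the same number. Their correlation was over 0.1 in each of the 3 pairs in spermatogonia, pachytene and early round spermatids (lowest 0.106, 0.107 and 0.129). It was not so in each pair of the other 5 stages or over all barcodes (lowest -0.216 and 0.0311). In elongating spermatids the values were 0.425, 0.413 and -0.0105. All stages of a library come from the same sample, so pairing cannot hold in some stages only. These correlations therefore cannot decide it. With the replicate block 0 members were called in any stage, and of all genes 0 in spermatogonia and pachytene, 4 in early round spermatids, 11 in leptotene to zygotene and 24 over all barcodes.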
